A study of Mus musculus with 9 samples.

Results

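The core circadian clock genes were followed in mouse lung as 10 named genes, Arntl, Clock, Npas2, Per1, Per2, Per3, Cry1, Cry2, Nr1d1 and Dbp, out of the 27203 genes that the deposited table resolves into. They were chosen by name. Each value is an FPKM, fragments scaled to exon length and to the mapped fragments of the library, which the authors deposited per transcript and which was summed here over the transcripts of a gene. All 10 genes were found and all 10 passed the filter for testing, a mean of at least 0.1 FPKM over the 9 libraries, as did 19378 genes in all.

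The lung of 1 male C57BL/6 mouse, aged 6 to 8 weeks, made each library, and 3 mice, numbered as replicates 1 to 3, stood for a group. In the VILI groups (VILI, ventilator-induced lung injury) 4 hours of mechanical ventilation at 20 ml/kg, under ketamine, xylazine and pancuronium, preceded collection of the lungs, which took place right after ventilation (VILI 0 hours) or 6 hours later (VILI 6 hours). Control mice were intubated without being ventilated. All 3 groups were of the same strain and carried no engineered allele. The time of day at which each lung was taken, and the delay in the controls, are not given in the sources used here, so that the hour of collection and the ventilation cannot be told apart in any comparison between the groups.

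The circadian clock is a feedback loop of transcription that runs in nearly every cell, including those of the lung. The proteins of Arntl (also called Bmal1) and Clock, or its paralog Npas2, pair up and activate genes through E-box sequences, among them the Per and Cry genes, whose proteins then repress that pair, as well as Nr1d1, Nr1d2 and Dbp. The nuclear receptors of Nr1d1 and Nr1d2 (REV-ERB) repress Arntl and Npas2 through ROR response elements, and the factors of Dbp, Tef and Hlf activate genes through D-boxes, where Nfil3 represses. In a tissue on a daily cycle, Arntl and Npas2 therefore peak roughly opposite to Nr1d1, Dbp and the Per genes. Per1 is also induced directly by glucocorticoids and by cAMP signaling.

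Some promoters of the members hold such control sequences next to the start of transcription. RefSeq promoters (GRCm38.p6, 250 bases before to 50 bases after the start) were found for 9 of the 10 members, all but Per2, in 13 entries. They were searched on both strands for 5 motifs: the E-box CACGTG, the E-box variant CACGTT, the D-box as TTATGTAA, TTATGCAA or TTACGTAA, the ROR response element core as TAGGTCA or TGGGTCA, and the cAMP response element TGACGTCA. These motifs do not overlap each other in the sequences printed here. Of all 32851 promoters of the same length, 7.15% held the E-box, 4.68% the variant, 1.78% the D-box, 6.45% the ROR element core and 1.79% the cAMP response element. The 5 promoters printed here belong to members whose levels are set side by side further on, and capitals mark the motifs. The Arntl promoter (chr7:113207261-113207560, plus strand) held a ROR element core 30 bases after the start. That of Per1 (chr11:69098699-69098998, plus strand) held an E-box and a D-box at -166 and -24 bases. That of Per3 (chr4:151044616-151044915, minus strand) held a pair of D-boxes at -205 and -158 bases. That of Cry1 (chr10:85185005-85185304, minus strand) held an E-box variant at -79 and an E-box at -60 bases, and that of Nr1d1 (chr11:98775328-98775627, minus strand) an E-box variant at -28 bases. Cry2 had an E-box variant at -166 bases, and no motif of the 5 was found in these windows of Clock, Npas2 or Dbp, nor in the other entries of Arntl (chr7:113207215-113207514) and Per1 (chr11:69099902-69100201). So 6 of the 13 entries held a motif and 7 held none, and the cAMP response element was found in none of the 13. A match describes the letters of the window and not a bound site.
Arntl: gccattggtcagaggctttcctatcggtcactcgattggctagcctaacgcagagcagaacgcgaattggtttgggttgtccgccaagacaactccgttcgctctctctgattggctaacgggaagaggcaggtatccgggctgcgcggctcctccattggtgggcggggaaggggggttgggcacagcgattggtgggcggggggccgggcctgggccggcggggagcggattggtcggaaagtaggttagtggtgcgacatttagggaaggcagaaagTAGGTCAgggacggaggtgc
Per1: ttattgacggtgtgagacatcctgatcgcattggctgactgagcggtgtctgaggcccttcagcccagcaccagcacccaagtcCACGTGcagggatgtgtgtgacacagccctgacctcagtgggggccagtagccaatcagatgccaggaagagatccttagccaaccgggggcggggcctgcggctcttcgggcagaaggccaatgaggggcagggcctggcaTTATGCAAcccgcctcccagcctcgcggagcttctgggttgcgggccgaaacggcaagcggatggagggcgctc
Per3: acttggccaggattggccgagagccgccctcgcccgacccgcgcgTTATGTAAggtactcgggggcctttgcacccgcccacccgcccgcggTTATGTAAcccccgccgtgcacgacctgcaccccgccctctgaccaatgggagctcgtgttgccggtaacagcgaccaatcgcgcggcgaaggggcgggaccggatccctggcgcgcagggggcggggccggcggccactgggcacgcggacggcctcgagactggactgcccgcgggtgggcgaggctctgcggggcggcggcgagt
Cry1: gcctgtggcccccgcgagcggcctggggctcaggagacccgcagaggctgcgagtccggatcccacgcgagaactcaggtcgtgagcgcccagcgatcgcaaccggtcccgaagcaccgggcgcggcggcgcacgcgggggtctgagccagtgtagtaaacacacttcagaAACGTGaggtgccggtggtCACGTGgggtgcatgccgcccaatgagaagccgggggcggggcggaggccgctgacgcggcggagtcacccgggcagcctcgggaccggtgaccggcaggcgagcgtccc
Nr1d1: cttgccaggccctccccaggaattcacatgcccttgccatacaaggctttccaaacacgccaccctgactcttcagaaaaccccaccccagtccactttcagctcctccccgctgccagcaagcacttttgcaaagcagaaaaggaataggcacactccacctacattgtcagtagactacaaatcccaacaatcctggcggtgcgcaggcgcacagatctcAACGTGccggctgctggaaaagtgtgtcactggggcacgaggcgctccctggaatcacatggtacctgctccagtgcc

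In control lungs, levels per length could be ordered as follows. Per3 was highest at 28.5 ± 4.07 FPKM (SD, n = 3), followed by Dbp at 27.3 ± 7.88, Per2 at 21.3 ± 3.15, Cry2 at 20.7 ± 2.67, Clock at 18.7 ± 0.619, Per1 at 17.6 ± 5.01 and Nr1d1 at 14.4 ± 3.92 FPKM. Each of these 7 overlapped the next in that order. Cry1 at 10.1 ± 1.07, Arntl at 3.43 ± 0.474 and Npas2 at 2.27 ± 0.601 FPKM followed, with no overlap between neighbors from Nr1d1 downward.

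**Figure D1:**
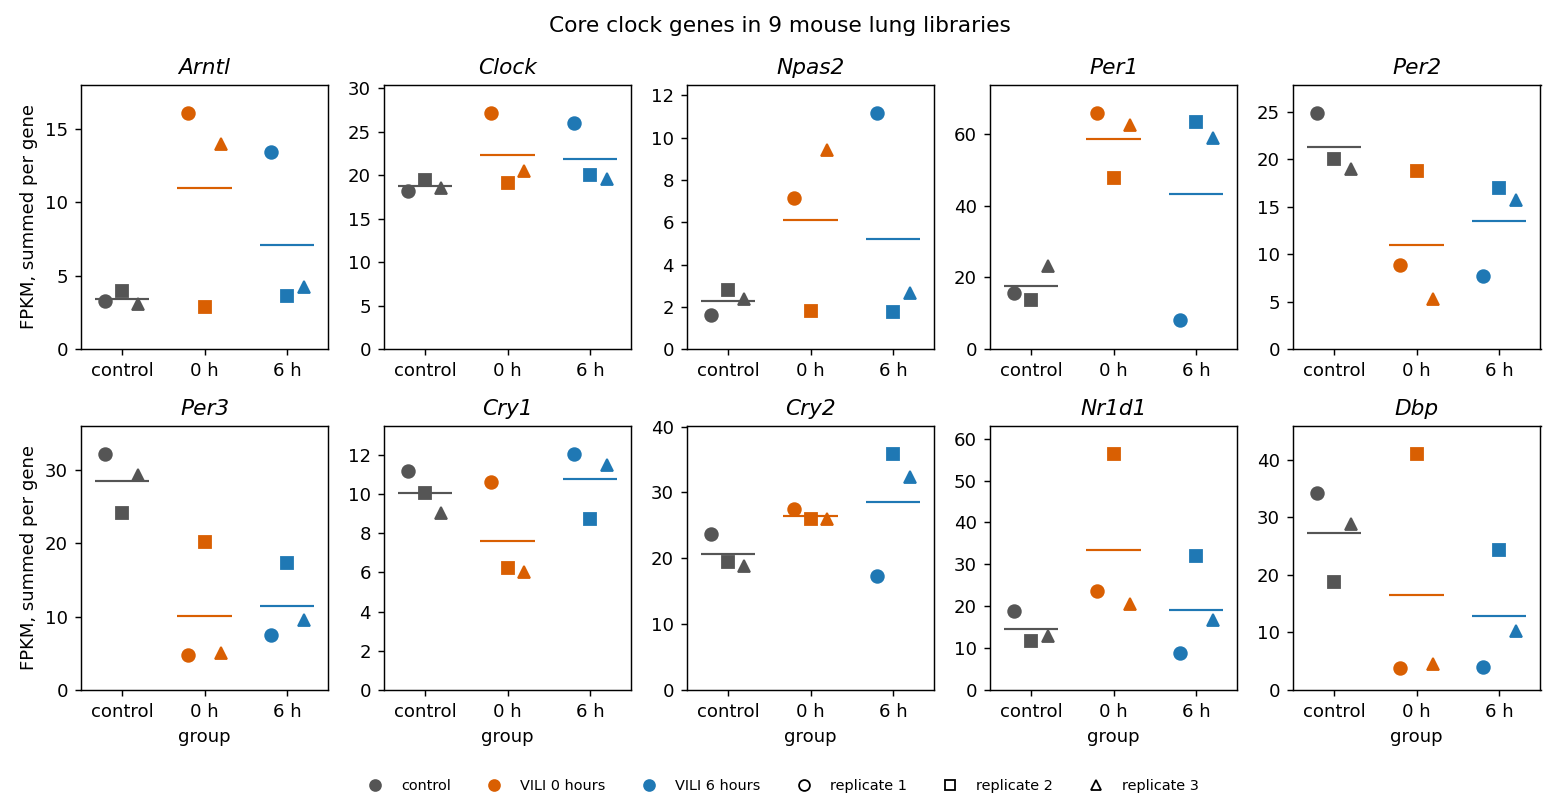
FPKM summed per gene (y axis, linear from 0) of the 10 clock genes in each library, by group (x axis; 0 h and 6 h are VILI 0 hours and VILI 6 hours). Marker shapes give the replicate and lines the group mean. The 3 control libraries overlap no ventilated library in Per2 and Per3, and VILI 0 hours replicates 1 and 3 and VILI 6 hours replicate 1 are highest for Arntl, Clock and Npas2 and lowest for Per2, Per3 and Dbp.

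The activators split the ventilated lungs. Arntl (chr7:113207465-113314126), which encodes the obligate partner of the activating pair, measured 3.25, 3.96 and 3.07 FPKM in the 3 controls, 16.1, 2.86 and 14.0 FPKM in VILI 0 hours lungs 1 to 3 and 13.4, 3.59 and 4.21 FPKM in VILI 6 hours lungs 1 to 3. VILI 0 hours replicates 1 and 3 and VILI 6 hours replicate 1 were the 3 highest libraries, and the other 3 ventilated libraries lay at the level of the controls. Npas2 (chr1:39193731-39363236), the Clock paralog, measured 1.62, 2.81 and 2.37 FPKM in the 3 controls, 7.16, 1.80 and 9.41 FPKM in VILI 0 hours lungs 1 to 3 and 11.2, 1.77 and 2.66 FPKM in VILI 6 hours lungs 1 to 3. Its 3 highest libraries were the same as those of Arntl. Clock itself (chr5:76209868-76304792) moved little and measured 18.2, 19.4 and 18.5 FPKM in the 3 controls, 27.2, 19.2 and 20.5 FPKM in VILI 0 hours lungs 1 to 3 and 26.1, 20.01 and 19.6 FPKM in VILI 6 hours lungs 1 to 3. Its 3 highest libraries were again those of Arntl, though the third of them stood only slightly above the remaining 6.

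The D-box activator Dbp and the repressors Per2 and Per3 had the reverse order of libraries. Dbp (chr7:45705088-45710203) measured 34.3, 18.8 and 28.9 FPKM in the 3 controls, 3.79, 41.0 and 4.57 FPKM in VILI 0 hours lungs 1 to 3 and 3.98, 24.3 and 10.2 FPKM in VILI 6 hours lungs 1 to 3. The 3 libraries highest for Arntl were its lowest, VILI 0 hours replicate 2 was its highest of all 9, and VILI 6 hours replicate 3 lay between. Per3 (chr4:151003652-151044665) measured 32.1, 24.1 and 29.2 FPKM in the 3 controls, 4.82, 20.2 and 5.09 FPKM in VILI 0 hours lungs 1 to 3 and 7.46, 17.3 and 9.48 FPKM in VILI 6 hours lungs 1 to 3. Every ventilated library was below every control for this gene, which carries the pair of D-boxes printed above. Per2 (chr1:91415982-91459324), a core repressor, measured 24.9, 20.04 and 19.0 FPKM in the 3 controls, 8.92, 18.8 and 5.32 FPKM in VILI 0 hours lungs 1 to 3 and 7.71, 16.9 and 15.8 FPKM in VILI 6 hours lungs 1 to 3. Here too all 6 ventilated libraries were below the controls, though VILI 0 hours replicate 2 was so by a small margin.

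The order of libraries thus cut across the groups. For Arntl, Clock and Npas2 the 3 highest libraries, and for Per2, Per3 and Dbp the 3 lowest, were VILI 0 hours replicates 1 and 3 and VILI 6 hours replicate 1. Of all 14108 genes with a mean of at least 1 FPKM, 113 had these as their 3 highest libraries and 113 as their 3 lowest (0.801% each). These 3 libraries were singled out after the values had been seen, so that no test was made between them and the others. With the transcript of highest mean in place of the gene's sum, the order was kept for Arntl, Npas2, Per2, Per3 and Dbp, while for Clock 2 of its 3 highest libraries and 1 of its 3 lowest were among these.

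**Figure D2:**
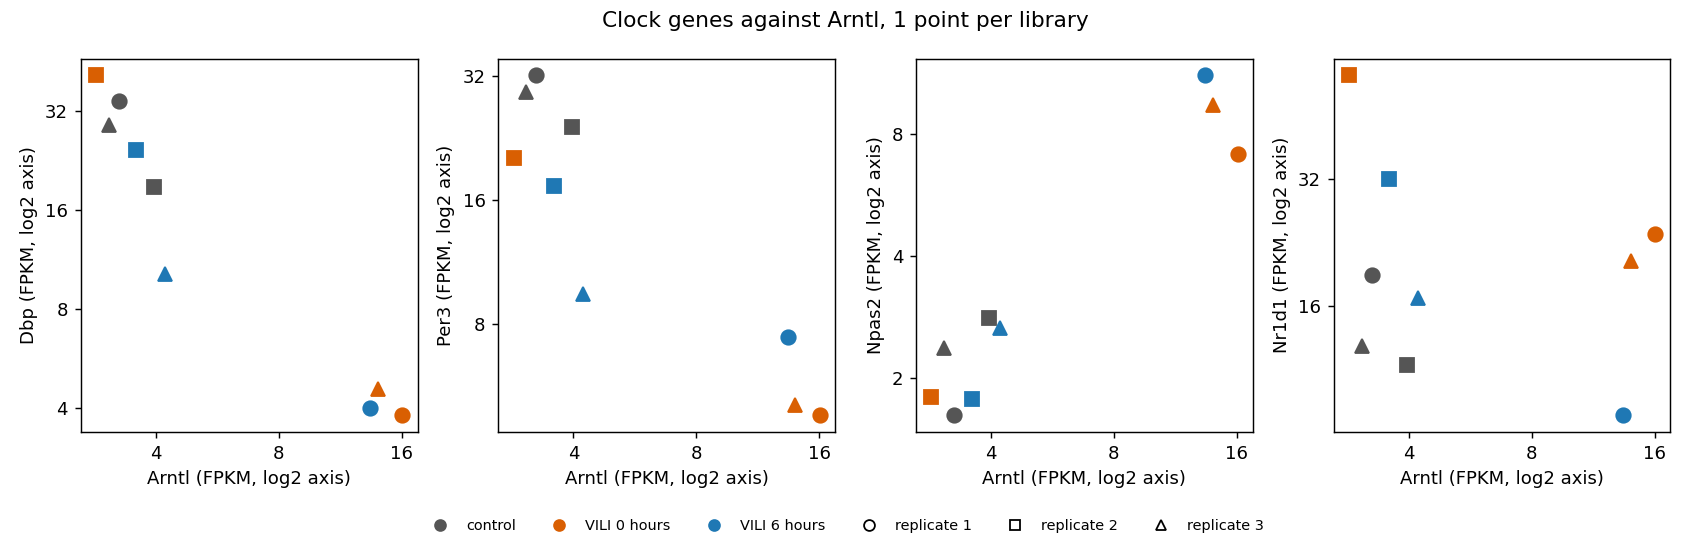
Dbp, Per3, Npas2 and Nr1d1 (y axes, FPKM) against Arntl (x axis, FPKM), both on log2 axes, with 1 point per library, colored by group and shaped by replicate. The 3 libraries with Arntl at 13.4 to 16.1 FPKM have Dbp at 3.79 to 4.57 FPKM, and the other 6, with Arntl at 2.86 to 4.21 FPKM, have Dbp at 10.2 to 41.0 FPKM; Nr1d1, from 8.80 to 56.3 FPKM, shows no such split between the 3 libraries and the 6.

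Other clock genes were 3 of the 6 genes most like Arntl and Dbp over the 9 libraries. By Pearson's r of log2(FPKM + 0.1) over these 14108 genes, Npas2 (0.96), Rbm24 (0.92) and Mfsd2a (0.89) were nearest to Arntl, and Dbp (-0.96), Acbd6 (-0.94) and Per2 (-0.93) were farthest. For Dbp the nearest were Nr1d2 (0.95), Per3 (0.93) and Acbd6 (0.91), and the farthest Arntl (-0.96), Npas2 (-0.94) and Dtx4 (-0.91). These are descriptions over 9 libraries that share groups, and those with Arntl rest on the step between 3 libraries and 6, because the largest gap in Arntl took over 0.5 of its range (0.671). For 4 of 8 pairs examined, those with Arntl or Clock, no test over all 9 libraries is therefore given, and the r of Arntl and Dbp stands only as the description above. For the other 4, the exact permutation test, adjusted over the 8 pairs, gave an r of -0.42 for Npas2 and Nr1d1 (p = 0.261, adjusted 0.696; rho -0.45, p = 0.23, adjusted 0.582), -0.19 for Per1 and Per2 (p = 0.615, adjusted 0.703; rho -0.40, p = 0.291, adjusted 0.582), -0.08 for Per1 and Dbp (p = 0.833, adjusted 0.833; rho -0.23, p = 0.552, adjusted 0.736) and -0.20 for Cry1 and Cry2 (p = 0.595, adjusted 0.703; rho -0.25, p = 0.521, adjusted 0.736). Without the 2 libraries farthest from the median of the first gene these r were -0.21, -0.65, -0.62 and -0.22. Within groups, as deviations from the group means, Arntl had an r of -0.97 with Dbp, -0.93 with Per3 and -0.90 with Nr1d1. Over the 9 libraries the r of Arntl with Nr1d1 was only -0.27. Clock and Cry1 had an r of 0.78 within groups, 0.32 over the 9 libraries and -0.47 without VILI 0 hours replicate 1 and VILI 6 hours replicate 1, so that its sign rests on these 2 libraries. Npas2 and Nr1d1 had an r of -0.97 within groups, against 0.42 for Per1 and Per2, 0.38 for Per1 and Dbp and -0.16 for Cry1 and Cry2.

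The mice of a ventilated group differed from each other far more in several of these genes than in most others. In VILI 0 hours the SD of log2 FPKM was 1.89 for Dbp, larger than that of 99.8% of the 14108 genes, 1.36 for Arntl, 1.25 for Npas2 and 1.16 for Per3, against a median of 0.167 over these genes. In VILI 6 hours it was 1.68 for Per1, 1.36 for Npas2 and 1.29 for Dbp, against a median of 0.273. Among the controls, Dbp at 0.446 was larger than 97.2% of genes and Clock at 0.0471 larger than 16.1%, with a median of 0.104. Cry2 in VILI 0 hours, with an SD of 0.0494, was steadier than most genes (larger than 8.26%).

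Per1 followed another order. Per1 (chr11:69095217-69109960), a repressor that is also an acute response gene, measured 15.7, 13.7 and 23.2 FPKM in the 3 controls, 65.7, 47.6 and 62.5 FPKM in VILI 0 hours lungs 1 to 3 and 8.05, 63.2 and 58.8 FPKM in VILI 6 hours lungs 1 to 3. It was above every control in 5 of the 6 ventilated libraries, those with high and those with low Arntl alike, and below every control in VILI 6 hours replicate 1. Its sum rests on 5 transcripts, of which row 4 and row 5 held 37.0% and 44.6% and exchanged places between libraries, so that a single transcript is not reported.

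For the glucocorticoid-induced genes listed beside it, VILI 6 hours replicate 1 likewise lay nearer to the controls than the other 5 ventilated libraries did in summed level, though Fkbp5, Sgk1, Dusp1 and Cebpd were still above every control there. Fkbp5, which encodes a chaperone of the glucocorticoid receptor, measured 4.62, 4.43 and 3.53 FPKM in the 3 controls, 86.3, 46.5 and 96.5 FPKM in VILI 0 hours lungs 1 to 3 and 6.73, 81.6 and 107.5 FPKM in VILI 6 hours lungs 1 to 3. The summed level of the 8 listed genes was 266.7 to 316.3 FPKM in control, 806.9 to 1666 FPKM in VILI 0 hours, 1076 and 1193 FPKM in VILI 6 hours replicates 2 and 3, and 243.4 FPKM in VILI 6 hours replicate 1. In the limma fit 7 of the 8 rose at VILI 0 hours (median log2 fold change 1.99) and 4 at VILI 6 hours (1.39), beside 6.81% and 8.17% of all genes, with no adjusted p under 0.05. Of the 10 early genes listed for cAMP and stress, 4 were higher at VILI 0 hours (median 0.70) and 2 at VILI 6 hours (0.36), beside the same shares of all genes. Whether these lists bear on Per1 was not tested.

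**Figure D3:**
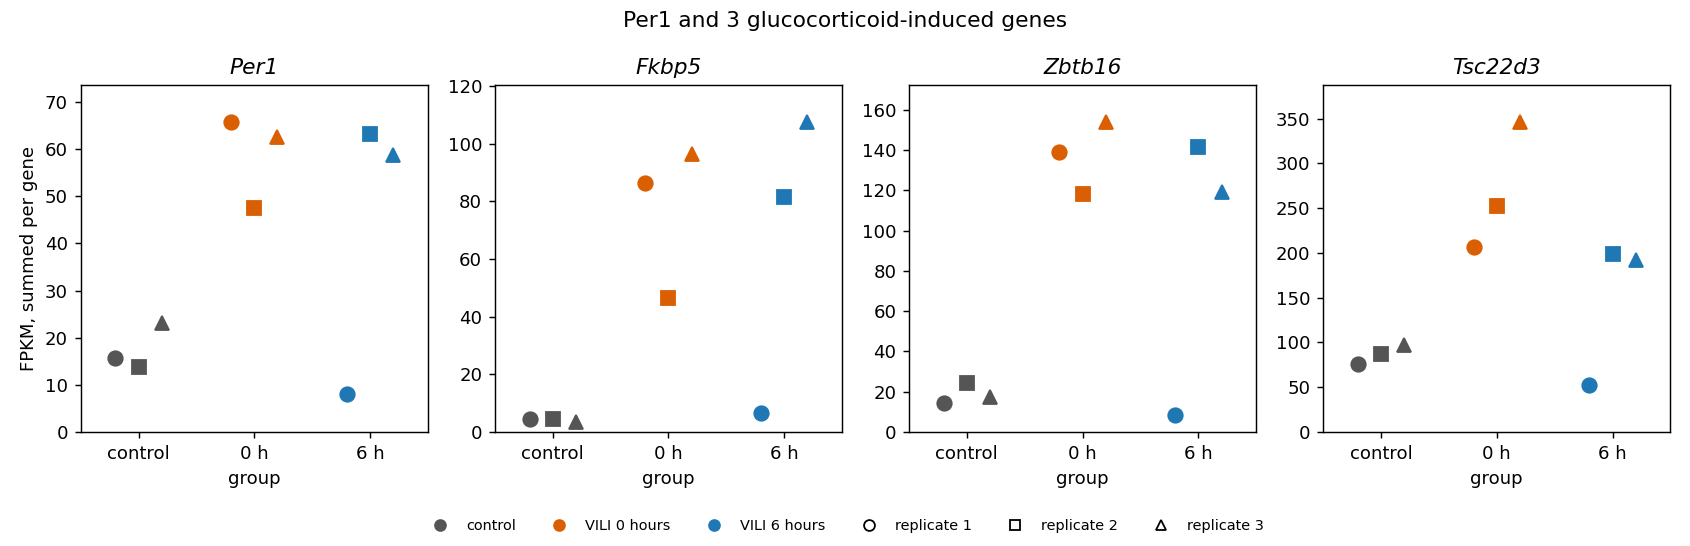
FPKM summed per gene (y axes, linear from 0) of Per1 and of the glucocorticoid-induced genes Fkbp5, Zbtb16 and Tsc22d3 in each library, by group (x axis). In all 4 genes 5 ventilated libraries stand well above the controls, and VILI 6 hours replicate 1, with Per1 at 8.05 and Fkbp5 at 6.73 FPKM, does not stand with them.

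Over the 9 libraries Nr1d1 and Cry1 matched neither order, and Cry2 had the exception of Per1. Within groups, however, Nr1d1 ran opposite to Arntl, with the r of -0.90 given above. Nr1d1 (chr11:98767932-98775333), the heme-binding repressor of Arntl, measured 18.9, 11.6 and 12.8 FPKM in the 3 controls, 23.6, 56.3 and 20.5 FPKM in VILI 0 hours lungs 1 to 3 and 8.80, 31.9 and 16.7 FPKM in VILI 6 hours lungs 1 to 3. All 3 VILI 0 hours libraries were above the controls, VILI 0 hours replicate 2 being the highest, whereas VILI 6 hours libraries spread to either side. The 3' end of Nr1d1 overlaps that of Thra on the other strand (chr11:98740638-98769006), and the kits named in the labels and in the methods differ, so that the strand setting is unknown here; Thra lay between 28.6 and 31.0 FPKM in the controls, between 33.5 and 43.0 FPKM at VILI 0 hours and between 19.4 and 40.2 FPKM at VILI 6 hours, and its part in Nr1d1 was not tested. Dbp overlaps Sphk2 in the same way (chr7:45709467-45718002), which stayed between 9.38 and 12.6 FPKM in the 9 libraries. Cry1 (chr10:85131700-85185064), a core repressor, measured 11.2, 10.03 and 9.02 FPKM in the 3 controls, 10.6, 6.23 and 6.00 FPKM in VILI 0 hours lungs 1 to 3 and 12.04, 8.75 and 11.5 FPKM in VILI 6 hours lungs 1 to 3. Cry2 (chr2:92403646-92434043), its paralog, measured 23.7, 19.4 and 18.9 FPKM in the 3 controls, 27.5, 26.0 and 25.9 FPKM in VILI 0 hours lungs 1 to 3 and 17.2, 35.8 and 32.4 FPKM in VILI 6 hours lungs 1 to 3. For Cry2 5 of the 6 ventilated libraries were above every control and VILI 6 hours replicate 1 was below them, as for Per1.

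Ratios within a library set the levels of paired clock genes against each other, and 10 were computed after the values had been seen, so that they are given as descriptions with no test. At VILI 0 hours 6 of the 10 did not overlap the controls, at VILI 6 hours 5 of the 10, and 2 of the 10 did not overlap between these times. Of single genes, 33.5%, 24.6% and 12.5% did not overlap in these comparisons. No share over other gene pairs was computed, and several of the ratios share a gene, so that these counts are not read as a trait of clock genes. The ratio of Nr1d1 to Dbp was 0.552, 0.617 and 0.445 in control, 6.23, 1.37 and 4.48 in VILI 0 hours and 2.21, 1.31 and 1.64 in VILI 6 hours, so that all 6 ventilated libraries, those with control-like Arntl included, were above every control. The ratio of Nr1d1 to Nr1d2, paralogs of the same loop, was 0.439, 0.361 and 0.296 in control, 1.41, 1.29 and 1.14 in VILI 0 hours and 0.846, 0.897 and 0.612 in VILI 6 hours. The 3 groups did not overlap, with VILI 6 hours between the others. The ratio of Nr1d1 to Per3 also kept the 3 groups apart. It lay between 0.439 and 0.589 in the controls, between 2.79 and 4.90 at VILI 0 hours and between 1.18 and 1.84 at VILI 6 hours. The mean log2 difference from control was 2.66 and 1.66 for Nr1d1 to Dbp, 1.82 and 1.10 for Nr1d1 to Nr1d2, and 2.93 and 1.65 for Nr1d1 to Per3, at VILI 0 hours and VILI 6 hours. The ratio of Per1 to Per2 was 0.632, 0.684 and 1.22 in control, 7.37, 2.53 and 11.7 in VILI 0 hours and 1.05, 3.73 and 3.73 in VILI 6 hours, and overlapped the controls only in VILI 6 hours replicate 1. The ratio of Arntl to Dbp, by contrast, ran from 0.0697 in VILI 0 hours replicate 2 to 4.23 in VILI 0 hours replicate 1, a 60.7-fold range within 1 group, with controls at 0.0947 to 0.211. The ratio of Nr1d1 to Arntl, the repressor and its target, overlapped in every comparison, with 2.92 to 5.83 in the controls, 1.46 to 19.7 at VILI 0 hours and 0.657 to 8.90 at VILI 6 hours.

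**Figure D4:**
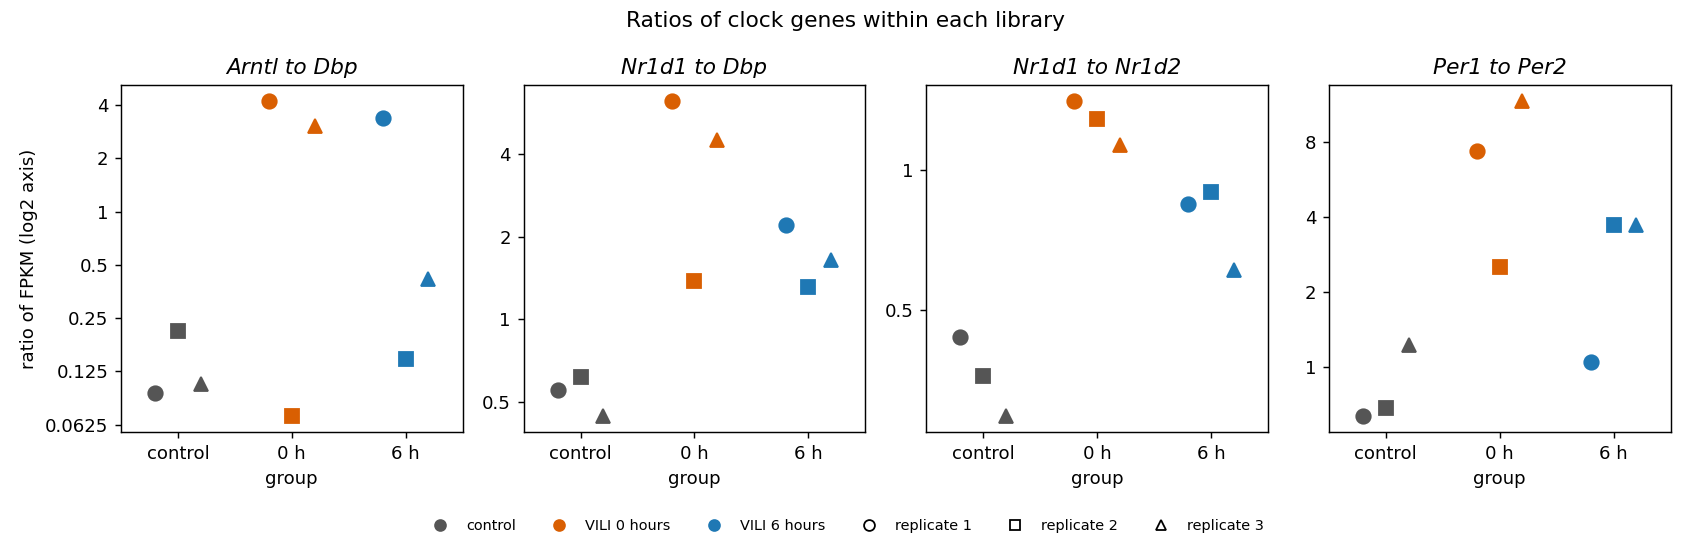
Ratio of FPKM within each library (y axes, log2) for 4 pairs of clock genes, by group (x axis), with marker shapes for the replicate. Arntl to Dbp splits the ventilated groups, from 0.0697 to 4.23, while for Nr1d1 to Nr1d2 the controls (0.296 to 0.439), VILI 6 hours (0.612 to 0.897) and VILI 0 hours (1.14 to 1.41) do not overlap.

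The comparison of VILI 0 hours with control asks what differs at the end of ventilation. Members passed here when limma gave an unadjusted P under 0.05. Per1 was higher by a log2 fold change of 1.76 ± 0.66 (SE, n = 3 per group, limma adjusted p = 0.238), Per3 lower at -1.82 ± 0.51 (adjusted p = 0.133) and Per2 lower at -1.13 ± 0.43 (adjusted p = 0.245). The remaining 7 members did not pass, with log2 fold changes of 1.32 ± 0.65 for Arntl, 1.13 ± 0.72 for Npas2, 0.23 ± 0.15 for Clock, 1.09 ± 0.48 for Nr1d1, 0.36 ± 0.24 for Cry2, -0.44 ± 0.22 for Cry1 and -1.55 ± 0.88 for Dbp. So 1 of 10 members was higher and 2 were lower, beside 6.81% and 9.35% of all genes tested, and no member had an adjusted p under 0.05, as 0.284% of genes had. In the fit to only the 6 libraries compared, and in the fit without VILI 6 hours replicate 1, Per1 did (limma adjusted p = 0.00656 and 0.00214), with the same log2 fold change. More genes passed altogether in these fits: 26.3% and 23.2% of all genes had an unadjusted P under 0.05, against 16.2% in the fit to all 9 libraries. The share of all genes with an adjusted p under 0.05 is not given for them. In 5 members (Per1, Per2, Per3, Cry2 and Nr1d1) the groups did not overlap, beside 33.5% of all genes. The median log2 fold change was 0.30 over the members and -0.07 over all genes tested.

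Single libraries decided several of these calls. Per1 lost its call without control replicate 1 (1.70), control replicate 2 (1.60), VILI 0 hours replicate 1 (1.67) or VILI 0 hours replicate 3 (1.70), and Per2 without control replicate 1 (-1.01), VILI 0 hours replicate 1 (-1.07) or VILI 0 hours replicate 3 (-0.70), the values being log2 fold changes. With the transcript row of highest mean in place of the sum, Per1 did not pass either (1.49), and 2 members did. Without VILI 0 hours replicate 2, the lung with control-like Arntl, 6 of 10 members passed beside 14.5% of all genes, with Arntl at 2.105, Npas2 at 1.84 and Dbp at -2.64 among them (limma adjusted p = 0.135, 0.264 and 0.139). Dropping VILI 0 hours replicate 1 instead gave log2 fold changes of 0.88, 0.88 and -0.94 for these genes. Dropping VILI 0 hours replicate 3 gave 0.98, 0.68 and -1.07, and none of these 6 values had a call. The gain in calls without VILI 0 hours replicate 2, here and between the VILI groups, reflects its control-like levels, which were seen beforehand. It is therefore no test of the split in Arntl. Cry1 passed without VILI 0 hours replicate 1 (-0.71). Nr1d1 passed without control replicate 1 (1.30), VILI 0 hours replicate 3 (1.36) or VILI 6 hours replicate 2 (1.09), and when VILI 6 hours replicate 1 was dropped from the shared spread, Nr1d1 (1.09), Arntl (1.32) and Cry2 (0.36) passed and 6 of 10 members did in all, beside 23.2% of all genes. Centring each library on its median log2 value, which moved the fold changes up by 0.115, made Clock (0.35) and Nr1d1 (1.202) pass and took Per2 out (-1.01), so that 3 members were then higher and 1 was lower.

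At VILI 6 hours against control 1 member passed. Per3 was lower at -1.39 ± 0.51 (SE, limma adjusted p = 0.180). So 1 of 10 members was lower and 0 were higher, beside 12.2% and 8.17% of all genes, and 0 had an adjusted p under 0.05, beside 0.702% of genes. In 3 members (Clock, Per2 and Per3) the groups did not overlap, beside 24.6% of genes. The median was 0.23 over the members and -0.09 over all genes. The other log2 fold changes were 0.77 ± 0.65 for Arntl, 0.75 ± 0.72 for Npas2, 0.21 ± 0.15 for Clock, 0.86 ± 0.66 for Per1, -0.73 ± 0.43 for Per2, 0.09 ± 0.22 for Cry1, 0.40 ± 0.24 for Cry2, 0.25 ± 0.48 for Nr1d1 and -1.40 ± 0.88 for Dbp. When VILI 6 hours replicate 1 was left out, Per1 (1.83, limma adjusted p = 0.0013) and Cry2 (0.72, adjusted p = 0.00469) passed, and Per3 did not (-1.14, adjusted p = 0.163), so that 2 of 10 members passed beside 38.8% of all genes. In that fit the log2 fold changes without a call were 0.19 for Arntl, -0.02 for Npas2 and -0.75 for Dbp, each nearer to 0 than with the library. Per3 also lost its call without control replicate 1 (-1.30), control replicate 3 (-1.37) or VILI 6 hours replicate 3 (-1.31). Leaving VILI 0 hours replicate 2 out of the shared spread made Per2 (-0.73) and Dbp (-1.40) pass beside Per3, 3 of 10 members against 18.6% of all genes.

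Between the VILI groups, Cry1 alone passed, higher at 6 hours by 0.53 ± 0.22 (limma adjusted p = 0.474). That is 1 of 10 members higher and 0 lower, beside 5.06% and 4.94% of all genes, and no gene of the 19378 had an adjusted p under 0.05 (0%), while 981 and 957 had an unadjusted P under 0.05 in the same limma fit. In 0 of the 10 members were the groups apart, beside 12.5% of genes. Cry1 lost its call in 7 of the 9 fits that left out a library, with 0.38 to 0.53, and kept it without VILI 0 hours replicate 1 and without VILI 6 hours replicate 2. Leaving out VILI 0 hours replicate 2 let Arntl (-1.33), Per2 (0.88) and Per3 (1.10) pass (3 of 10 members, beside 7.38% of all genes), leaving out VILI 6 hours replicate 1 Cry2 (0.36; 1 of 10, beside 22.4%), and leaving out VILI 6 hours replicate 2 Nr1d1 (-1.30; 2 of 10 with Cry1, beside 9.84%). The median was 0.01 over the members and -0.02 over all genes.

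**Figure D5:**
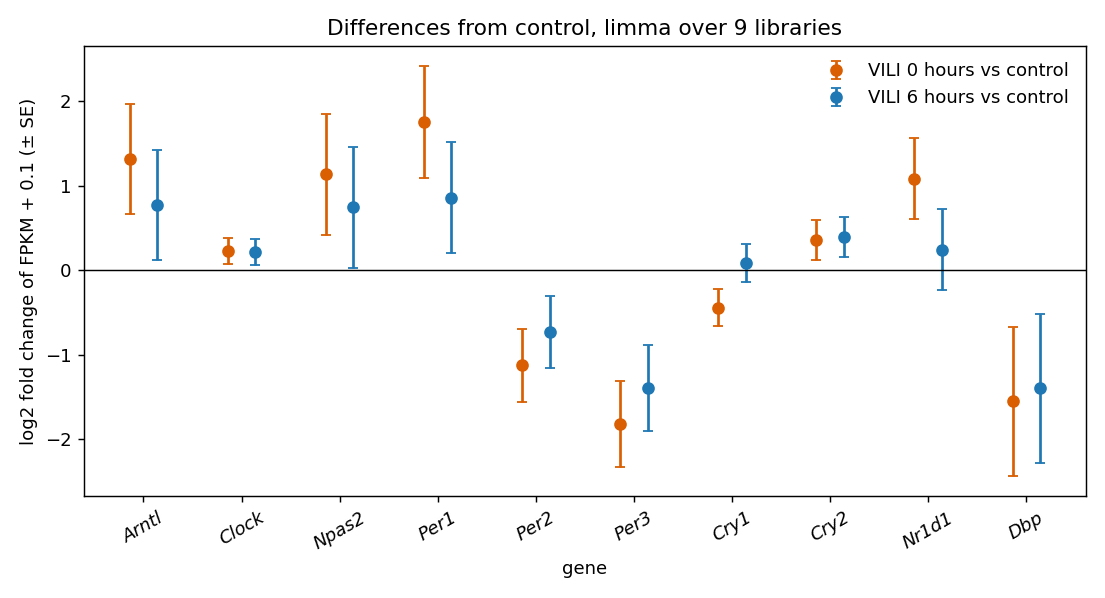
Log2 fold change of FPKM + 0.1 against control (y axis) with its SE from limma, for the 10 members (x axis) at VILI 0 hours and VILI 6 hours, which share the control libraries. Per3 is lowest in VILI 0 hours (-1.82) and Per1 highest (1.76), and the bars of Arntl, Npas2 and Dbp are wide in both.

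The other genes of the clock pathway were taken from a list of 23, of which 22 were tested (Rorb was too low). At VILI 0 hours 2 of the 22 were higher and 5 lower at P under 0.05, beside 6.81% and 9.35% of all genes, and at VILI 6 hours 1 was higher and 4 were lower, beside 8.17% and 12.2%. The median log2 fold changes were -0.09 and -0.01. Nfil3, the D-box repressor, measured 1.99, 2.90 and 2.36 FPKM in the 3 controls, 12.1, 5.81 and 16.5 FPKM in VILI 0 hours lungs 1 to 3 and 7.68, 7.92 and 16.4 FPKM in VILI 6 hours lungs 1 to 3, above the controls in all 6 ventilated libraries (limma log2 fold change 2.09 ± 0.39, adjusted p = 0.0657, and 2.02 ± 0.39, adjusted p = 0.0587). Among the D-box activators Hlf was lower at both times (-1.02 ± 0.33, limma adjusted p = 0.184, and -1.27 ± 0.33, adjusted p = 0.102), while Tef had log2 fold changes of 0.01 and -0.15 and no call.

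Other receptors of the second loop were set beside Nr1d1. Nr1d2, the Nr1d1 paralog, measured 43.1, 32.1 and 43.4 FPKM in the 3 controls, 16.7, 43.8 and 18.0 FPKM in VILI 0 hours lungs 1 to 3 and 10.4, 35.6 and 27.3 FPKM in VILI 6 hours lungs 1 to 3, with its lowest libraries the 3 highest for Arntl. Rora had no call, at 11.6 to 18.6 FPKM over the 9 libraries. Of the E-box repressors Bhlhe40 was higher at VILI 6 hours than at VILI 0 hours (0.99 ± 0.42, limma adjusted p = 0.479), and Bhlhe41 and Ciart had no call.

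Among the kinases and ubiquitin ligases that set the stability of PER and CRY proteins, differences were small: Gsk3b (-0.21) and Btrc (-0.39) were lower at VILI 0 hours, Fbxl21 was lower at VILI 6 hours (-0.67), and Csnk1d, Csnk1e and Fbxw11 had no call. The Arntl paralog Arntl2 was lower at VILI 6 hours (-0.88), from control levels of 0.583 to 0.78 FPKM. Of the 5 listed outputs, Tsc22d3, which is also a glucocorticoid-induced gene, was higher at VILI 0 hours (1.61 ± 0.45, limma adjusted p = 0.134) and lower at VILI 6 hours than at VILI 0 hours (-1.06), Tspan4 was lower at VILI 0 hours (-0.80), and Usp2, Wee1 and Nampt had no call.

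Other features of the libraries moved beside these results. The 9 libraries had column sums of 366400 to 388500 FPKM, and the depth in reads is not known from the table. The tissue carried the markers of lung in every library, with Sftpc at 9684 to 12500 FPKM. Cell type markers moved as well. Neutrophil markers rose in 8 of 10 genes at VILI 0 hours and 9 of 10 at VILI 6 hours (limma, P under 0.05, beside 6.81% and 8.17% of all genes), their summed level being 50.2 to 57.4 FPKM in control and 468.1 to 2075 FPKM in the ventilated libraries, with Ly6g at 0 in 2 controls and Camp at 0 in 1; their part in the members' differences was not tested. In bulk lung, fewer cells of a type and less RNA per cell cannot be told apart. VILI 6 hours replicate 1, in which Per1, Cry2 and Nr1d1 were lowest, also had the lowest summed level of the 3 erythroid genes, 311.4 FPKM against 2090 to 3558 FPKM in the other 8, and 468.1 FPKM of neutrophil markers, above all controls. Of the cold-induced genes neither passed, and Cirbp, at 90.8, 30.6 and 37.9 FPKM in VILI 0 hours and 32.7, 63.4 and 65.7 FPKM in VILI 6 hours, did not follow the order of Arntl. Of the heat-shock chaperones 4 of 8 were higher at VILI 0 hours and 1 of 8 at VILI 6 hours (limma, P under 0.05), beside 6.81% and 8.17% of all genes, and their summed level was highest in VILI 6 hours replicate 1, at 868.5 FPKM against 470.3 to 646.2 FPKM in the other 8 libraries. The same library had the lowest sum of T cell markers (7.485 FPKM against 13.3 to 24.1) and the highest sum of club and ciliated cell markers (41650 FPKM against 23600 to 32870), mostly Scgb1a1 (39010 FPKM), with Cyp2f2 and Foxj1 also highest there. The other markers of that list, Scgb3a2 and Tppp3, were highest in control replicates 3 and 1 (1350 and 157.7 FPKM), against 1308 and 121.5 FPKM in VILI 6 hours replicate 1. Of the 5 alveolar macrophage markers Chil3 alone was highest there, at 527.9 FPKM against 128.6 to 301.0 FPKM. The part of these levels in the values of Per1, Cry2 and Nr1d1 in that library was not tested.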

How the data were processed

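RNA sequencing measured transcripts in the lungs of 9 mice, grouped by the treatment in the sample labels. The members and gene lists were chosen with earlier results of these data known. The authors removed adapter and low-quality reads, aligned with TopHat (submitters' processing notes: TopHat2 2.0.9, Bowtie2 2.0.6, GRCm38), assembled transcripts with Scripture and Cufflinks and deposited FPKM per transcript from Cuffdiff 2.1.1, in 60108 rows. No read counts were used, so the spread of the replicates is the measure of precision. The methods name a directional kit on rRNA-depleted RNA and the labels another kit.

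Gene IDs were matched to GENCODE M21 (23503 of 23713 matched), FPKM were summed per gene, and genes with a mean of at least 0.1 FPKM were tested on log2(FPKM + 0.1), which understates the change of low genes. limma 3.58.1 in R 4.3.3 (lmFit, contrasts, eBayes with a trend) was fitted to all 9 libraries with group as the only factor, and P-values were adjusted by Benjamini-Hochberg over all genes tested. The threshold of an unadjusted P under 0.05 is that of the study. Exact permutation tests were two-sided. This procedure was first tested on simulated data. Named genes were all 10 members, the fixed pathway and marker lists and the 3 genes of highest and lowest r for Arntl and Dbp. Alternatives were a pseudocount of 0.01 or 1 FPKM, a filter at 1 FPKM or none, median centring, a fit to the 6 libraries of a comparison, the replicate number as a block, no trend in eBayes, the transcript row of highest mean and each library left out. Those for ratios were chosen after seeing the data. Python 3.11.15 was used with pandas 2.3.3, numpy 2.4.6, matplotlib 3.10.9 and scipy 1.17.1. Values of 2 listed pathway genes are not reported here.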

Additional observations from a re-analysis of the deposited data

How the results depend on the processing

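With a pseudocount of 0.01 or 1 FPKM and with a filter at 1 FPKM or none, the counts of members at P under 0.05 stayed within 1.5 times those reported (3 at VILI 0 hours and 1 at VILI 6 hours, each against control, and 1 between these times). Over only the 6 libraries compared they were 5, 2 and 0, where 26.3%, 17.4% and 6.24% of all genes passed, and without a trend the last was 0 (9.55% of genes). Median centring moved the fold changes by 0.115, 0.127 and 0.0122 and gave 4, 2 and 1 members, and among all genes it raised the share of higher calls from 42.1% to 61.2%, from 40.1% to 58.1% and, between the times, changed it from 50.6% to 49.2%. Leaving out each library in turn gave 2 to 6, 0 to 3 and 0 to 3 members, where 10.2% to 23.2%, 13.1% to 38.8% and 7.26% to 22.4% of all genes passed. The replicate numbers were not used as pairs in the main fit. The deviations of libraries with the same number correlated at -0.221 to 0.0175, and those with different numbers at -0.122 to 0.167. Whether libraries shared a batch cannot be told from these values. With the replicate number as a block the counts were 6, 1 and 1, where 14.5%, 18% and 8.74% of all genes passed, against 16.2%, 20.4% and 10% without it and 16.4%, 20.2% and 10% with centring. With the row of highest mean the counts were 2, 1 and 1 (14%, 17.8% and 9.17% of genes). Of the 270 fold changes of members under the alternatives that kept all libraries of a group, 253 kept direction and side of the threshold, 4 lost a call, 10 gained one and 3 reversed. These 3, with the row of highest mean and between the 2 times, were Clock (0.0302), Cry2 (-0.104) and Dbp (-0.0611). Of the fold changes with a library left out, 218 of 270 were kept, 18 lost a call, 19 gained one and 15 reversed, all 15 for values without a call. Their ranges over the libraries left out, at VILI 6 hours against control, were -0.024 to 1.27 for Npas2, -0.00213 to 0.225 for Cry1 and -0.217 to 0.707 for Nr1d1. Between the times they were -0.153 to 0.129 for Clock, -0.486 to 1.24 for Dbp, -1.16 to 0.135 for Npas2, -0.026 to 0.876 for Per2, -1.41 to 0.0706 for Per1 and -0.163 to 0.363 for Cry2. The differences in the ratios of Nr1d1 to Dbp, Nr1d2 and Per3 and of Per1 to Per2 kept their direction with the row of highest mean and with each library left out. The cause of these shifts was not tested. Read depth is not known from FPKM, so the precision rests on 3 replicates a group.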

Other observations

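The other cell type markers moved less than those of neutrophils. At VILI 0 hours against control, limma at P under 0.05 had 3 of 5 alveolar macrophage markers higher, 2 of 5 alveolar type 1 markers higher, 1 of 6 alveolar type 2 markers higher, 1 of 5 endothelial markers lower, 1 of 5 fibroblast markers higher and 1 lower, and 1 of 4 B cell markers lower. Of all genes, 6.81% were higher and 9.35% lower in that comparison. At VILI 6 hours, 3 of 4 B cell markers were lower, 2 of 5 alveolar type 1 markers and 1 of 5 alveolar macrophage markers were higher, and 1 marker each was lower among those of alveolar type 2, endothelial, fibroblast and club and ciliated cells, beside 8.17% of all genes higher and 12.2% lower. In lists this short, a count of 1 is not read as a result about the cell type. None of the 5 T cell, 3 erythroid and 5 pulmonary vein cardiac muscle markers passed against control at either time. The summed level of the B cell markers lay between 41.1 and 54.5 FPKM in the controls, and was 56.0, 33.9 and 17.5 FPKM in VILI 0 hours replicates 1 to 3 and 11.4, 34.2 and 17.6 FPKM in VILI 6 hours replicates 1 to 3, and that of cardiac muscle markers was highest, 270.7 FPKM, in VILI 0 hours replicate 3. Neither order is that of Arntl.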
